A study of Sus scrofa with 30 samples.

Results

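The 10 embryos sequenced on Day 8 after insemination, out of 30 pig embryos in all, were profiled for the genes with the most reads and for the genes whose levels differed most from embryo to embryo. All 10 columns of the Day 8 count table were used, 5 from female and 5 from male embryos, and the remaining 20 embryos came from Days 10 and 12 with 10 on each day. The gilts were German Landrace × Pietrain crosses whose cycles had been synchronized with hormones, and all were inseminated with sperm of a single Pietrain boar. 4 gilts were slaughtered on each day, and each embryo was flushed, frozen and sequenced whole, so that embryonic disc and trophectoderm are mixed in every library. Sex was determined by qPCR on DNA of the same embryo. Embryos are named as in the labels, with f for female and m for male. According to the study's results section, embryos of both sexes were taken from the same sow on each day. The dam of each embryo is not given, so littermates cannot be picked out, and the p-values measure the spread between these embryos only. In whole embryos, fewer cells of a type and less RNA per cell cannot be told apart.

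The pig blastocyst begins to hatch from its zona pellucida at about this age and lies free in the uterus. Its outer epithelium, the trophectoderm, pumps fluid into the cavity, takes up secretions of the uterus and will form the placental epithelium. The inner cells have separated into epiblast, the source of the body, and hypoblast, a thin inner epithelium that lays down basement membrane and lines the cavity.

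The Day 8 table held 11405 genes, all matched to a gene symbol, and total counts per embryo ran from 14870794 (male embryo d08_m_121) to 33758525 (male embryo d08_m_103) with a median of 20148781. 3 counts corresponded to 0.203 CPM (counts scaled to library size, with TMM factors) in the smallest library. Correlations of log2 CPM between embryos lay between 0.962 and 0.986 over the 45 pairs. The pair of embryos most alike still differed by 7.97 times the sampling noise (chi-square per degree of freedom), so none was taken as a library deposited more than once. The 9 Y-linked genes among those described below lay at 0.339 CPM or less in every female embryo and at 6.36 CPM or more in every male embryo.

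Epithelial, protein-making and lysosomal genes led the Day 8 profile. KRT8, a keratin of simple epithelia, had the most reads, from 10832 CPM in male embryo d08_m_111 to 14366 CPM in male embryo d08_m_136 and a median of 12860 CPM (12735 ± 1075 CPM, mean ± SD, n = 10). Its partner keratin KRT18 had 10474 ± 646 CPM, and the elongation factor EEF1A1, which brings amino-acyl tRNA to the ribosome, 10817 ± 818 CPM. PSAP, the precursor of the saposins that help lysosomal enzymes break down sphingolipids, followed with 7465 to 11318 CPM and a median of 8485 CPM (8622 ± 1184 CPM). GM2A, another lysosomal activator protein of glycolipid breakdown, had 4977 to 5793 CPM (5438 ± 267 CPM), and its embryos lay closer together than those of PSAP. The order is one of read counts and not of molecules, since no transcript lengths were at hand to scale genes against each other.

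The other genes among the first 20 fall into a few functions. ACTG1 (7844 ± 835 CPM) and ACTB (5175 ± 582 CPM) encode cytoplasmic actins, and EZR (3046 ± 139 CPM) links actin to the membrane of microvilli. LRP2, the endocytic receptor megalin, had 4205 ± 535 CPM, and HAVCR1, a cell surface receptor of epithelia, 3455 ± 341 CPM. The chaperones HSPA8, HSP90AB1, HSP90AA1 and HSPD1 lay between 3069 and 6403 CPM on average. EEF2, PABPC1, the tubulin gene TUBA1B, the mitochondrial carrier SLC25A6, the ATP synthase subunit ATP5B and the lysosomal protease CTSD complete the 20.

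These genes held nearly the same place in every embryo. The 20 genes took 10.8% ± 0.372 (SD, n = 10) of the counts, from 10.2% to 11.4%, and the first 100 genes took 23.8%, from 23.1% to 24.5%. Each embryo's own 20 leading genes included 17 to 20 of them, and each embryo's own first 100 genes included at least 93 of the 100. The SD of log2 CPM over the 10 embryos was between 0.0648 (EZR) and 0.206 (CTSD) among the 20 genes.

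**Figure D1:**
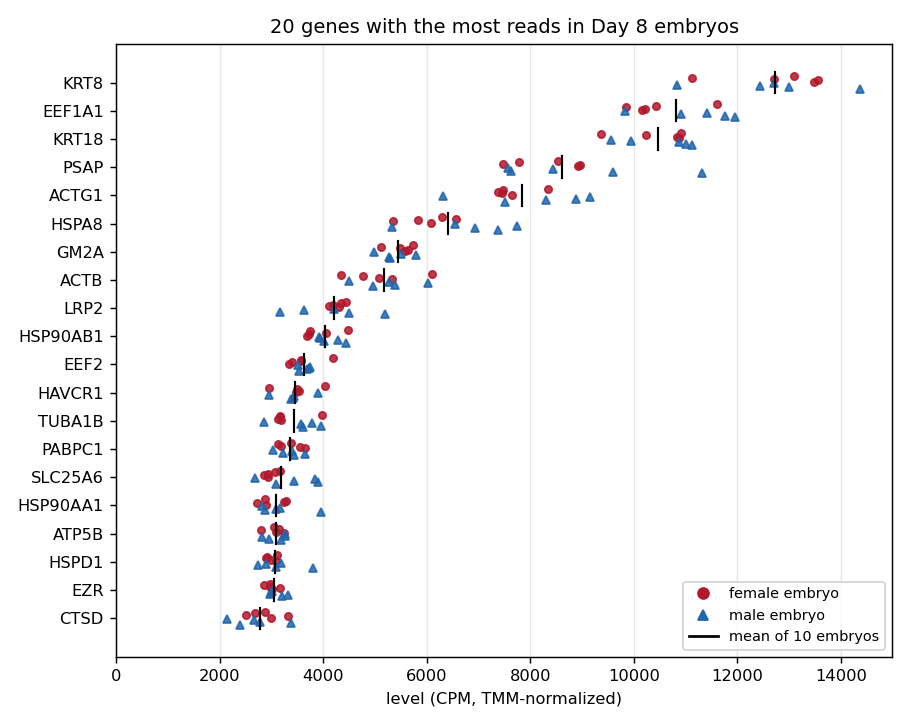
TMM-normalized level (CPM, x axis) of the 20 genes with the most reads, by gene. Circles are female and triangles male embryos, the vertical line is the mean of 10 embryos, and KRT8 leads at 12735 CPM with overlapping ranges of the sexes.

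Few of the leading genes differed by sex. Of the 100 genes with the most reads, 2 were higher in female embryos and 0 in male embryos by the edgeR quasi-likelihood test at an FDR under 0.05, where 0.535% and 0.123% of all genes tested were called in those directions. Over both directions 75 genes (0.658%) were called, and 524 had an unadjusted p under 0.05. All 20 leading genes had an adjusted p of 0.999 in this test.

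Among the leading genes more were lower than higher on Day 12. With an FDR below 0.001 and more than 1 log2 unit of change required, 34 of the first 100 genes were lower and 3 higher on Day 12 than on Day 8, against 10.4% and 22% of all genes tested. The first 100 genes were picked for a high level on Day 8, which by itself tilts them toward lower later levels. The gap from all genes is a description and was not tested. GM2A was 6.19 ± 0.189 (SE) log2 units and PSAP 4.36 ± 0.123 log2 units below its Day 8 level, with edgeR adjusted p-values of 1.76e-22 and 2.84e-23 and 10 embryos on each day. On Day 10 GM2A was 0.70 log2 units higher than on Day 8 (edgeR adjusted p = 0.000266), short of the 1 log2 unit required. Of the 24 genes on the list of lysosomal proteins and proteases, the comparison with Day 10 called 7 higher and 4 of them lower, and the one with Day 12 called 8 higher and 10 of them lower. LRP2 fell by 2.03, EZR by 2.01 and KRT18 by 1.49 on the log2 scale. For Day 10 the same test called 4 of the 100 genes higher and 6 of them lower, against 9.88% and 4.2% of all genes, and CTSD had already dropped by 1.59 log2 units. With library size alone as scaling, the median of all genes moved by -0.18 log2 units on Day 10 and the Day 10 split over all genes from 1295 higher and 550 lower to 1027 higher and 811 lower. Of the first 100 genes, 3 were then called higher and 9 of them lower for Day 10, with 3 and 33 for Day 12.

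By gene list, the 77 measured proteins of the cytosolic ribosome took 6.43% ± 0.374 of the counts (SD, n = 10). Translation factors took 3.72% ± 0.0906, chaperones 3.19% ± 0.161, the cytoskeleton list 2.87% ± 0.191 and the respiratory chain list 2.01% ± 0.0549. Lysosomal proteins and proteases took 1.98% ± 0.175, led by PSAP, CTSD, LGMN (2289 ± 362 CPM) and the cholesterol carrier NPC2 (2082 ± 206 CPM). Within the list of junction and transport genes, the sodium pump subunit ATP1B3 had 1550 ± 191 CPM and the desmosomal protein DSP 1290 ± 134 CPM. Mitochondrially encoded genes were not analysed here.

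Genes of fat and iron handling and of prostaglandin synthesis had high levels too. Among lipid genes, the desaturase SCD had 1901 ± 244 CPM, the lipid droplet coat protein PLIN2 1900 ± 144 CPM and the fatty acid carrier FABP3 829 ± 79.3 CPM. PLIN2 was 1.41 log2 units lower on Day 10 and 3.97 lower on Day 12 (edgeR adjusted p = 5.26e-09 and 6.86e-19, 10 embryos a day). The ferritin chains FTH1 and FTL had 1672 ± 180 and 968 ± 147 CPM. In the prostaglandin pathway, PTGS2, the inducible cyclooxygenase, had 847 ± 155 CPM and PTGES, which makes prostaglandin E2, 555 ± 61.7 CPM. Of the steroid genes, CYP11A1, which cleaves the side chain of cholesterol, had 241 ± 36.0 CPM, while STAR, which carries cholesterol into the mitochondrion, had 11.6 ± 4.28 CPM. STAR was 5.52 and HSD17B1, a steroid dehydrogenase gene, 5.14 log2 units higher on Day 10 (edgeR adjusted p = 4.30e-11 and 1.99e-15).

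Markers of the 3 lineages of the blastocyst were present in unequal amounts of reads. All 19 measured trophectoderm markers of 22 listed had a mean of 5 CPM or more, with the transcription factors GATA2 at 478 ± 34.4, CDX2 at 177 ± 10.6 and GATA3 at 143 ± 9.97 CPM, and the list took 2.70% ± 0.148 of the counts, most of it KRT8 (1.27%) and KRT18 (1.05%). Hypoblast markers took 0.733% ± 0.0559, most of it LRP2, and GATA6, GATA4 and SOX17 had 148 ± 11.9, 40.4 ± 9.88 and 27.2 ± 9.37 CPM. Epiblast markers took 0.137% ± 0.00577, most of it ESRRB, DNMT3B, ZFP42 and SALL4. The pluripotency factors POU5F1, NANOG and SOX2 of that list had 32.1 ± 5.90, 3.81 ± 1.13 and 0.970 ± 0.453 CPM. ESRRB, an orphan receptor known from pluripotent cells and from trophoblast, had 361 ± 34.4 CPM, so the share does not measure epiblast cells alone. ESRRB was 2.30 log2 units lower on Day 10 and 10.5 log2 units lower on Day 12 (edgeR adjusted p = 1.62e-07 and 2.52e-18). The Day 12 drop ends near the floor of 3 counts, so its exact size is uncertain.

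Most markers of other cells were not in the table, with PECAM1 as the highest of the few that were. Of 21 markers of blood and immune cells, 1 was in the table (AIF1, 1.27 ± 0.955 CPM), and the endometrium list had 2 of 17 genes, with a sum of 1.21 to 3.04 CPM per embryo. Of 19 genes of the primitive streak and mesoderm, 4 were measured, with a sum of up to 18.02 CPM per embryo. 1 of these had a mean of 5 CPM or more, and it was not EOMES, which had 2.47 ± 0.827 CPM. 2 of 15 markers of vessels and stroma were measured, PECAM1 with 24.0 ± 10.2 CPM and ENG with 1.90 ± 0.540 CPM.

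Most genes differed little between the 10 embryos. Of the 9017 genes (79.1%) with a mean of at least 5 CPM, the median SD of log2 CPM was 0.172, the 5th and 95th percentiles were 0.0798 and 0.448, and 96.4% lay under 0.5. Counting error alone gave an SD of about 0.137 for a gene at 5 CPM. 54 genes (0.599%) had an SD over 1. The 100 genes with the largest SD are called variable genes here. The last of them was TTC3 with an SD of 0.7223, and the next gene, LOC100627868, had 0.7217.

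**Figure D2:**
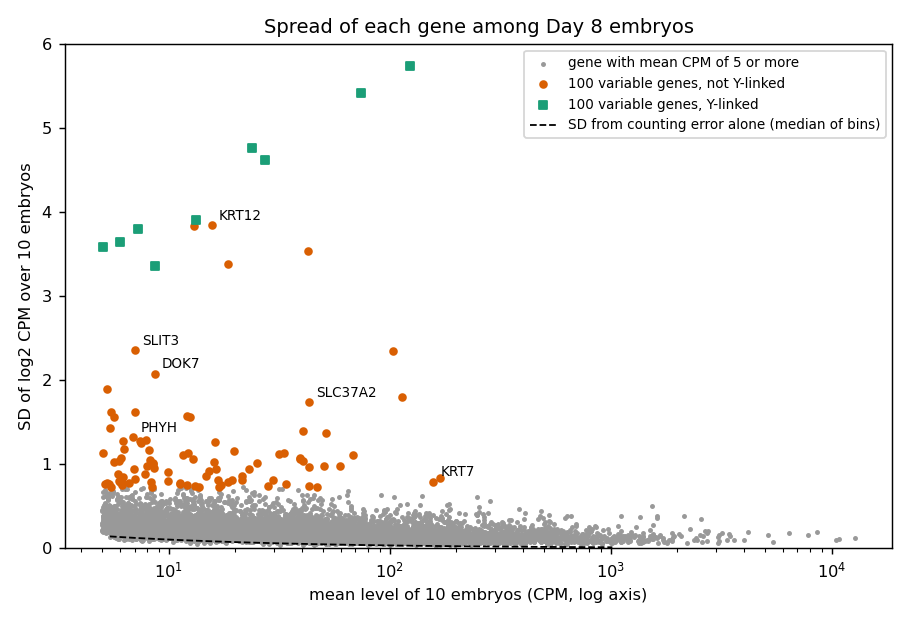
SD of log2 CPM over the 10 Day 8 embryos (y axis) against mean level (CPM, log x axis) for the 9017 genes with a mean of 5 CPM or more. Squares are Y-linked and filled circles other variable genes, and the dashed line is the SD that counting error alone would give.

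Few of the variable genes were on the gene lists, and many had provisional names. 3 of the 100 belonged to any of the gene lists (SLC9A3, KRT7 and LIPH), where 6.22% of the genes tested did, a gap that was not tested. 41 had only a provisional LOC symbol, compared with 5.17% of the genes tested, and 79 were protein coding, compared with 97.9%. 13 were annotated as pseudogenes of some kind and 7 as long noncoding RNA. Reads of pseudogenes and of near-identical copies can be shared with other loci, so the levels of these LOC genes are uncertain. The median level of the 100 genes was 12.1 CPM, compared with 40.4 CPM of the genes tested. 9 of the variable genes lay on the Y chromosome, out of 13 Y-linked genes tested, 6 on the X chromosome, 83 on autosomes, and 2 were unplaced.

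The largest spread lay in Y-linked genes. The 9 Y-linked genes had SDs from 3.36 to 5.73, and the highest belonged to LOC100624149, with 233 to 270 CPM in male embryos and at most 0.165 CPM in female embryos. EIF1AY, a translation initiation factor gene of the Y chromosome, had 44.7 to 50.9 CPM in male embryos and 0 counts in all 5 female embryos. The variable genes were chosen for their spread over these same embryos of both sexes, which favours genes present in a single sex. The sex calls among them are thus a description. By the edgeR quasi-likelihood test 10 of the 100 variable genes were called higher in male embryos, where 0.123% of all genes were, and 0 were called higher in female embryos. The tenth was MAPT, the autosomal gene of the microtubule protein tau, at 25.5 CPM on average in female and 75.7 CPM in male embryos. The log2 difference of MAPT was -1.57 ± 0.294 (female minus male, SE, adjusted p = 0.0344), and the sexes overlapped, with female embryos at 17.4 to 39.6 CPM and male embryos at 37.2 to 101 CPM.

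Among the 91 variable genes off the Y chromosome, some had levels in separate groups rather than along a range. In 18 of them, neighbouring embryos in the order of levels were more than 4-fold apart. Among all genes tested, Y-linked genes included, 27 had such a gap. The gap lay between groups of at least 2 embryos in 10 genes and set a single embryo apart in the other 8.

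KRT12, a keratin known from the cornea (chromosome 12, positions 21600163 to 21607268, Sscrofa11.1), was at 0 in part of the embryos. It had 0 counts in female embryos d08_f_105, d08_f_124 and d08_f_130 and 17.1 to 31.7 CPM in the 7 other embryos, at least 86.0-fold higher when 3 counts are set for each embryo at 0. The low and high embryos did not overlap, and none lay between. On Day 10 it was at 3 counts or fewer in 3 of 10 embryos and reached 75.0 CPM, and on Day 12 in 5 of 10 embryos and reached 92.5 CPM.

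LOC100517224 on chromosome 7 (positions 30672207 to 30672672) had 0 counts in female embryo d08_f_129 and male embryo d08_m_133 and 16.5 to 38 CPM in the other 8, at least 99.9-fold higher by the same floor. On Day 10 no embryo was at the floor, and on Day 12 a single embryo was. SLIT3, a secreted guidance ligand (chromosome 16, positions 54551536 to 55221427), had at most 3 counts in female embryo d08_f_109 and male embryo d08_m_133, and 4.60 to 13.7 CPM elsewhere. It was at 3 counts or fewer in 3 embryos on Day 10 and in 3 on Day 12.

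Other genes split the 10 embryos evenly. LOC110257607 (chromosome 18, positions 5119899 to 5122605) had 15.4 to 31.6 CPM in 5 embryos and at most 0.338 CPM in the other 5. DOK7, an adaptor of the muscle receptor kinase at the neuromuscular junction (chromosome 8, positions 2089645 to 2119076), had 12.8 to 22.1 CPM in 5 embryos and 0.532 to 1.67 CPM in the other 5. LOC100157017 lay at 68.8 to 108 CPM in 5 and at 11.9 to 16.2 CPM in 5 embryos. The sets of embryos differed from gene to gene: female embryo d08_f_105 was low for DOK7 and high for LOC110257607 and LOC100157017.

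ALDH9A1, an aldehyde dehydrogenase gene, showed the same shape with a smaller gap. It lay at 53 to 64.4 CPM in 4 embryos (d08_f_130, d08_m_111, d08_m_121 and d08_m_133) and at 11.8 to 14.9 CPM in the other 6. LOC100737436 was at 10.6 to 13.2 CPM in 4 embryos and at 0.543 to 1.42 CPM in 6. On Days 10 and 12, LOC100737436 ran from 0.730 to 83.2 and from 0.843 to 134 CPM.

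**Figure D3:**
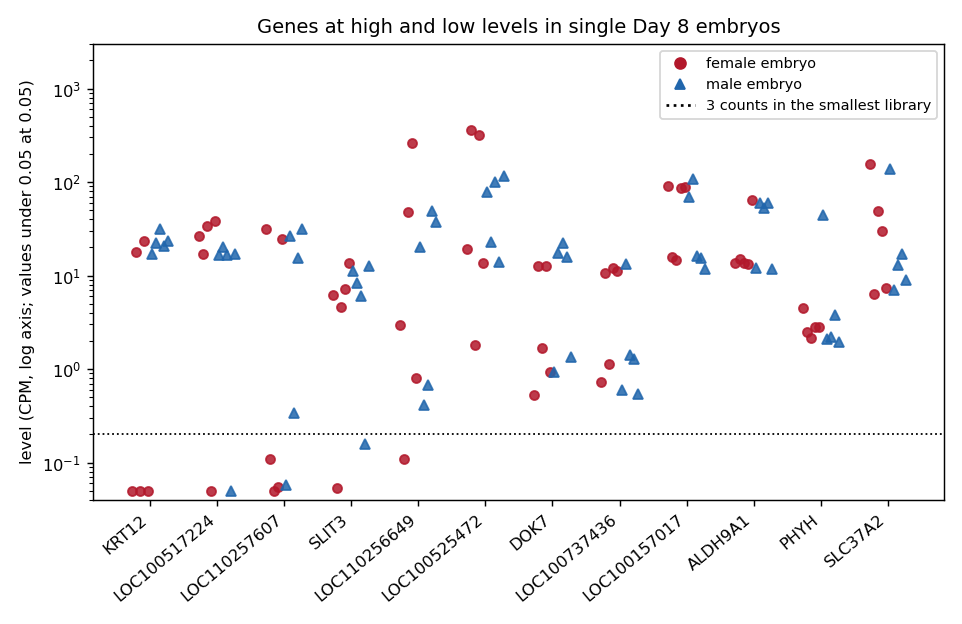
Level (CPM, log axis) of 12 variable genes in each of 10 Day 8 embryos, circles female and triangles male. Values under 0.05 CPM are drawn at 0.05, the dotted line is 3 counts in the smallest library, and KRT12, LOC100517224, LOC110257607 and SLIT3 have embryos under it.

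Some variable genes kept a spread on the later days and some changed level altogether. Of the 64 variable genes off the Y chromosome that also had a mean of 5 CPM or more on Day 10, 26 (40.6%) had an SD over 1 there, compared with 1.69% of all genes at that level. On Day 12 it was 22 of 65 (33.8%) against 4.42%, and the embryos of those days were not used to choose the genes. SLC37A2, a sugar phosphate transporter gene of the endoplasmic reticulum, ran from 6.37 to 155 CPM on Day 8, with female embryo d08_f_105 and male embryo d08_m_103 highest. On Day 10 it lay between 3329 and 7879 CPM and on Day 12 between 1241 and 2677 CPM, above all Day 8 embryos. LOC110256649 had 20 to 265 CPM in 5 Day 8 embryos and up to 2.95 CPM in 5, then at most 1.98 CPM in every Day 10 embryo and 12.6 to 668 CPM on Day 12.

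Of the 100 variable genes, the comparison of Day 10 with Day 8 called 13 higher and 16 lower, and that of Day 12 called 20 higher and 21 lower, by the edgeR test named above. With library size alone these were 10 and 18, and 20 and 21. Over all genes 14.1% and 32.5% were called. Genes that vary within a day have a large SE in this test, and a p that misses the threshold does not show that they stayed level.

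Covariation among the variable genes was limited. Of the pairs of the 91 genes off the Y chromosome, 4.44% had a Pearson r over 0.6 across the 10 embryos, compared with 6.78% of all pairs of genes tested, and the median r was 0.016. Since these correlations rest on 10 embryos and share libraries, they are descriptions. Joined by average linkage at r = 0.6, the 100 genes gave 4 groups of 5 or more genes that held 29 genes. 71 genes stood in 23 groups of 2 to 4 or alone.

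The largest group held the 9 Y-linked genes with MAPT (median pair r = 0.991). The second held 8 genes, among them TNS4, CEMIP, TRPV5, FHL2, CDH3, GCNT3 and KRT7, with a median pair r of 0.709. All 8 were highest in male embryo d08_m_136, and without that embryo the median r was 0.285. CDH3, which encodes P-cadherin, had 38.6 CPM in that embryo and 1.69 to 7.45 CPM elsewhere, and KRT7, a keratin of simple epithelia, 381 CPM there and 54.9 to 209 CPM elsewhere. The likeness of these 8 genes rested on that 1 embryo.

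The third group was 6 LOC genes (LOC100622481, LOC100627892, LOC106505804, LOC100513133, LOC110261130 and LOC102160003) with a median pair r of 0.747. 4 of them were highest in male embryo d08_m_103, and the median r was 0.610 without it. The fourth held CXH4orf3, PPAG3, FUT4, LOC100523945 and TYR, with a median pair r of 0.708 and 0.661 without female embryo d08_f_129. In this group female embryos d08_f_109 and d08_f_129 and male embryo d08_m_133 were high. TYR, the gene of tyrosinase, had 13.0, 9.35 and 9.20 CPM in these, and 0.743 to 12.5 CPM in the other 7, with male embryo d08_m_103 as high as they were.

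Among the smaller groups, SLC37A2, TMEM56, MOGAT1 and LOC100523928 covaried with a median pair r of 0.707, and female embryo d08_f_105 and male embryo d08_m_103 were the highest or next to highest embryos for all 4. MOGAT1 and LOC100523928 overlap in the genome, so these are 3 separate loci at most. TMEM56 had 95.3 and 90.6 CPM in these and 11.8 to 49.5 CPM in the other 8. LOC100517224 and TMEM177 had r = 0.921: the embryos d08_f_129 and d08_m_133, at 0 for the first, were the lowest for TMEM177 with 5.94 and 7.55 CPM, compared with 25.7 to 58.6 CPM elsewhere. DOK7 and ABCC1, a transporter gene of drugs and conjugates, had r = 0.883.

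Pairs of neighbouring genes were part of the covariation. MOGAT1, an enzyme gene of diacylglycerol synthesis, and LOC100523928 overlap on chromosome 15 and had r = 0.999. Whether counting used strand is not stated, so their reads cannot be told apart. PPAG3 and LOC100523945 on chromosome 2 lie 31115 bp apart and had r = 0.828. KRT12 and TNS4, 316948 bp apart on chromosome 12, had r = 0.158.

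The mean levels of most gene lists lay close together between embryos. A mean over many genes varies less than its single members, so it is not set against the spread of single genes. In every list with enough measured genes, except the hypoblast list, the mean level of an embryo stayed within 0.30 log2 units of the median embryo, where the farthest was d08_f_124 for the steroid and prostaglandin list. The 77 ribosomal protein genes were the most coordinated list (median pair r = 0.695, and 0.643 without male embryo d08_m_121), over a range of 0.273 log2 units between embryos. Its lowest means lay in the largest libraries, d08_m_103, d08_f_124 and d08_m_136 (-0.128, -0.0933 and -0.0812 log2 units from the median embryo). The smallest library, d08_m_121, had the highest mean (0.146), but d08_m_111 came next (0.142) with 24815695 counts. A relation of this list to library size was not tested. Trophectoderm markers hardly covaried (median pair r = 0.0367) and ranged over 0.108 log2 units.

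Within the lists a few members varied more than the rest. HSD17B1 ran from 31.0 to 142 CPM with a median of 58.0 CPM (SD of log2 CPM 0.627), and was highest in d08_f_124. TYMS, the thymidylate synthase gene, ran from 31.1 to 96.7 CPM (SD 0.684) while the other replication and division genes of its list had SDs up to 0.367. HMOX1 ran from 86.3 to 343 CPM (SD 0.619) and was highest in d08_m_136, as was PHLDA3, a p53 target, with 37.3 to 140 CPM (SD 0.553). GULO, the last enzyme of vitamin C synthesis, ran from 61.7 to 253 CPM (SD 0.603) and was highest in d08_m_111, and DUSP5, a phosphatase gene that responds to ERK signalling, from 27.9 to 90.7 CPM (SD 0.544), highest in d08_f_105. The highest embryo thus differed between these genes, apart from the pair in d08_m_136.

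The hypoblast list was the exception, and a single embryo carried it. Of its 23 genes with a mean of 5 CPM or more, 22 were highest in male embryo d08_m_121, which was the highest embryo in 12.1% of all genes tested off the Y chromosome. The mean of the list lay 0.61 log2 units above the median embryo there, and the next embryo, d08_f_124, lay 0.16 above it. Male embryo d08_m_121 had the highest mean of several other lists too, by less. Among them were the epiblast (0.235), cytoskeleton (0.222) and sterol synthesis (0.216) lists, while it was lowest for the p53 and apoptosis list (-0.163). The median pair r of the epiblast list was 0.150, and 0.0282 without this embryo. SOX17, a transcription factor of endoderm, had 51.8 CPM in male embryo d08_m_121 and 18.7 to 29.6 CPM in the others. FOXA2, another such factor, had 12.4 CPM there and 4.31 to 7.29 CPM elsewhere, and APOE, which carries lipids, 261 CPM and 98.0 to 153 CPM. The basement membrane genes LAMA1, COL4A1 and NID1 were likewise highest there, at 374, 471 and 346 CPM. LRP2 was the exception and had its lowest level, 3161 CPM, in this embryo.

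The median pair r of the hypoblast list was 0.606, and 0.226 without male embryo d08_m_121. This embryo had the smallest library, 14870794 counts, and the highest PECAM1 (49.3 CPM, 16.1 to 30.6 CPM elsewhere) and ENG (3.04 CPM). IHH, a hedgehog ligand gene, was also highest there, at 13.6 CPM against 9.56 CPM in the next embryo. Over the 10 embryos the mean of the list and log2 library size had r = -0.35 (permutation p = 0.34, adjusted 0.51) and rho = -0.35 (permutation p = 0.331, adjusted 0.64), and r was -0.31 without 2 embryos. The part of the PECAM1 and ENG levels in the result was not tested.

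**Figure D4:**
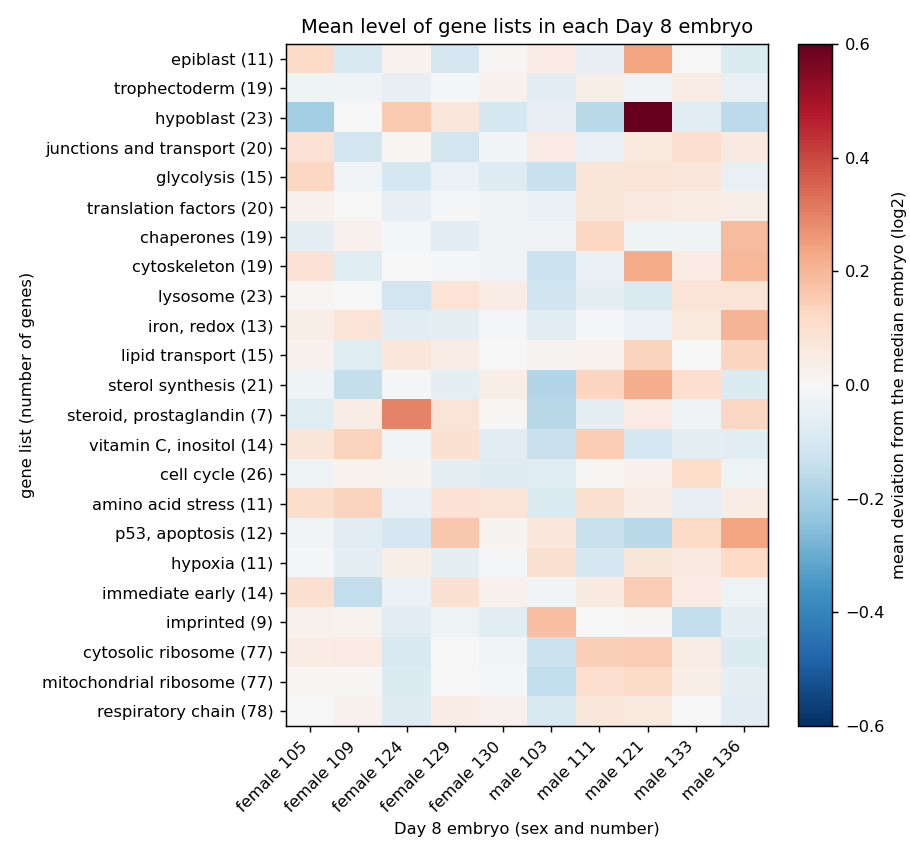
Mean deviation of each gene list (y axis, number of genes in brackets) from the median embryo, in log2 units, for each of the 10 Day 8 embryos (x axis). The strongest cell is the hypoblast list in male embryo d08_m_121, at 0.61.

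Levels of the epiblast, trophectoderm and hypoblast lists were not shown to move together over the embryos. Of 6 correlations computed among these lists and log2 library size, none had a permutation p under 0.05. Epiblast and hypoblast had r = 0.41 (permutation p = 0.25, adjusted 0.51) and rho = 0.28 (permutation p = 0.43, adjusted 0.64), and r was -0.11 without the 2 embryos farthest from the median. Trophectoderm and log2 library size had r = -0.53 (permutation p = 0.114, adjusted 0.51) and rho = -0.58 (permutation p = 0.0869, adjusted 0.521), and r was -0.87 without 2 embryos.

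**Figure D5:**
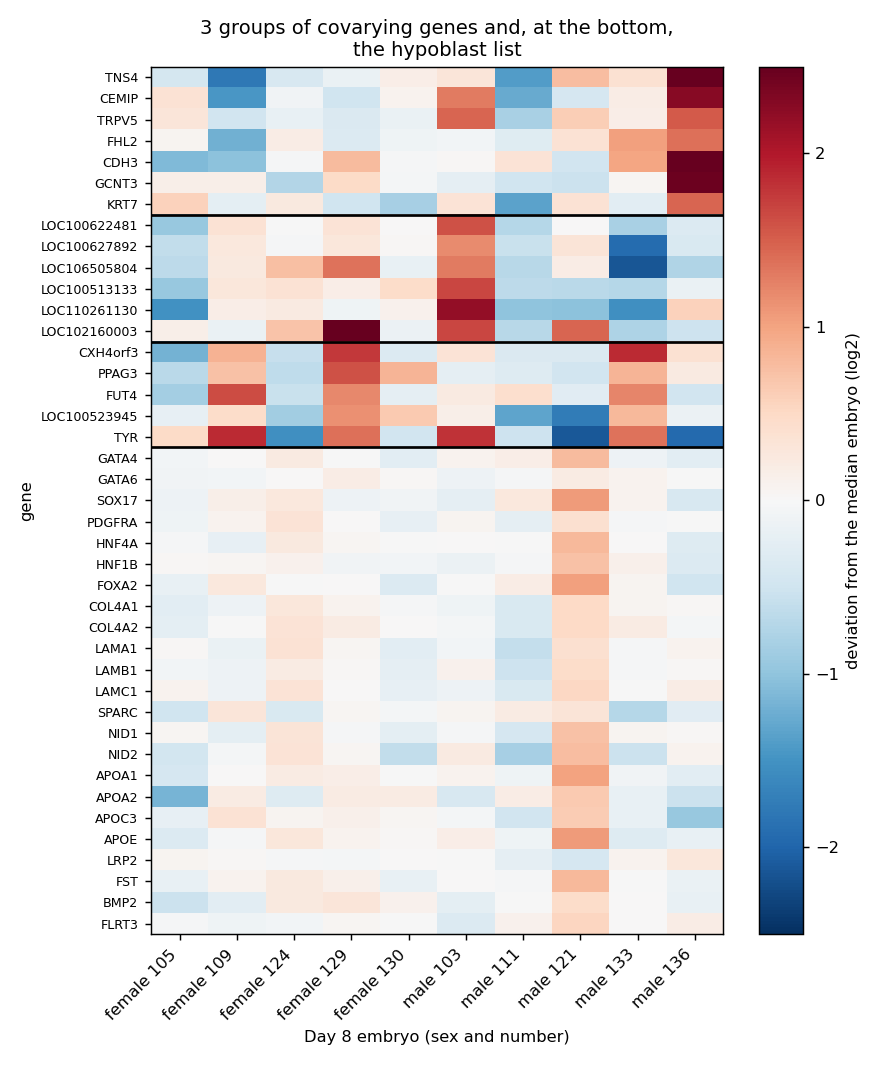
Deviation of log2 CPM from the median embryo for each gene (rows) in each Day 8 embryo (columns). The 3 upper blocks are the named genes of 3 groups of covarying variable genes, in which the first is highest in male embryo d08_m_136, and the lowest block is the hypoblast list, highest in male embryo d08_m_121 in 22 of 23 genes.

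The list of variable genes depended in part on single embryos. Leaving out each embryo in turn kept 85 to 95 of the 100 genes, and 47 were kept in all 10 cases. The number of genes with an SD over 1 went from 54 to 46 without male embryo d08_m_103 and to 57 at most. Without the embryo farthest from the others, the SD of the 91 genes was 0.802 of its value at the median, compared with 0.821 over all genes, and 8 genes lost more than 50% of it. The genes with a single embryo set apart were 10 of 91 (11%) by the gap between that embryo and the next over the range, compared with 7.45% of all genes tested.

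Male embryos lay farther from each other than female embryos. Over 8732 genes off the sex chromosomes, the mean distance between embryos was 38.2 log2 units among male and 30.7 among female embryos (Euclidean distance of log2 CPM, n = 5 of each sex). The difference of 7.58 had p = 0.0238 in a two-sided exact permutation test over 252 splits, chosen after the data had been seen. Without male embryo d08_m_103 it was 5.24 (p = 0.0794, exact permutation test), and without the 100 variable genes it was 9.70 (p = 0.0159, exact permutation test). The SD was larger in male than in female embryos in 75.1% of these genes. Male libraries ran from 14870794 to 33758525 counts and female libraries over a similar range, from 14966274 to 30379307. The part of library size and of litter was not tested.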

How the data were processed

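RNA of single whole embryos was sequenced from stranded mRNA libraries. The authors used Trim Galore for trimming and the assembly Sscrofa11.1 for mapping, counted reads on NCBI gene models and left out genes with low CPM. The aligner, counter and threshold are not given in the sources used here. The deposited tables give whole-number counts of reads, with one row for each NCBI gene and no normalization. Day 8 used its own table (11405 genes), and later days the table of all embryos (13103 genes). Gene symbols and coordinates are those of RefSeq for that assembly.

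Levels are TMM-normalized CPM, and log2 CPM uses a prior count of 2. Tests were the edgeR 4.0.16 quasi-likelihood F test with Benjamini-Hochberg adjustment, checked on simulated data; tools were R 4.3.3, DESeq2 1.42.0, Python 3.11.15, scipy 1.17.1, numpy 2.4.6, matplotlib 3.10.9 and pandas 2.3.3. The floor was 3 counts. Genes named are the 20 with the highest mean CPM, the 20 with the largest SD, up to 6 nearest each group mean and the leading list members; further genes were named after their values were seen. The members and lists were chosen with earlier results of these data known. Sequences were not used here, and some genes are not reported here. The alternatives tried were DESeq2, the robust edgeR GLM, median-of-ratios factors, library size alone, other prior counts and limits on mean CPM, sex as a term, rank-based measures and each embryo left out in turn. The comparison of distances between embryos was chosen after seeing the data.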

Additional observations from a re-analysis of the deposited data

Results flagged for a closer look

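6 of the Day 8 results screened here were set apart by a single embryo: the gap to the next embryo, as a share of the whole range of the 10 embryos, was above Dixon's 95% critical value. 47 named genes off the Y chromosome and the list means were screened this way, and chance flags about 1 in 20 groups. Further genes named in the report, such as PHYH, SOX17 and APOE, were outside this screen, so the 6 are not a full count. PHYH had a gap of 3.27 log2 units between d08_m_103 and the next embryo. Of all genes tested, 7.45% passed the same limit, and some of the screened genes had been chosen for a large SD. Male embryo d08_m_136 was the highest for HSP90AA1 (0.4943 of the range), HSPD1 (0.5376) and CDH3 (0.5314). The first 2 of these encode chaperones of the cytosol and the mitochondrion. Female embryo d08_f_105 was the highest for EEF2 (0.4863) and male embryo d08_m_103 for LOC100622481 (0.4859). Male embryo d08_m_121 was the highest for the mean of the hypoblast list (0.553).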

How the results depend on the processing

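The variable genes depended on the level asked for. With a mean of 1 CPM or more, 1.22% of genes had an SD over 1 and the 100 leading genes shared 40 with those described. With 10 CPM or more it was 0.367% (0.383% in the table of all embryos) and 55 shared, and with no filter 1.35% and 34. Ranking by median absolute deviation shared 63. By Spearman's rho 1 group of 5 or more genes was left, and 2 when joined at r = 0.7. DESeq2 called 1.13% of genes and the robust GLM 1.37% between the sexes, against 0.658%, and leaving out an embryo gave 0.386% to 0.614%, with the lowest (0.386%) without d08_f_129 and 0.403% to 0.421% without d08_f_109, d08_f_124, d08_f_130 or d08_m_133. The male minus female distance was 5.24 to 9.11 with an embryo left out, lowest without d08_m_103, where it missed the threshold. Trophectoderm against log2 library size was -0.71 (permutation p = 0.0326) without d08_m_111, and -0.71 to -0.37 with any embryo left out. The causes were not tested. The counts between days stayed within 1.5 times under every alternative run. No paired analysis was possible because the dam of each embryo is not given and the groups share no replicate numbers. Levels per kb were not run, as no transcript lengths were at hand. At 5 CPM and below, counting error limits the SD.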

Other observations

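Male embryo d08_m_103, with the largest library, had the most genes set high. Of the 9004 genes off the Y chromosome with a mean of 5 CPM or more, 76 were highest in it and over 1 log2 unit above the median embryo. The other embryos had 7 to 47 such genes. Without the limit of 1 log2 unit, d08_m_103 was the highest embryo in 16.3% of these 9004 genes, and d08_m_136 in 16.2%. It was also the lowest embryo in 19.4% of them, more than any other embryo. PHYH, a peroxisomal enzyme gene of phytanic acid breakdown, had 44.2 CPM in d08_m_103 and 1.94 to 4.5 CPM elsewhere. LENG8 had 116 CPM against 39.8 in the next embryo, and the splicing kinase gene CLK1 37.5 CPM against 17.6. In male embryo d08_m_136, HMOX1, which breaks down heme, had 343 CPM against 197 in the next embryo.

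2 further list genes were far lower on both later days. GULO, described above for its spread, was 8.71 log2 units lower on Day 10 and 8.50 lower on Day 12 (edgeR adjusted p = 3.08e-17 and 4.09e-18). LIPH, a lipase gene, was 7.26 and 6.18 log2 units lower.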
